A study of Mus musculus with 24 samples.

Results

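The comparison described here is that of hindleg skeletal muscle from newborn C57BL/6 mice whose mothers ate a low protein or a normal protein diet, where all mothers also received taurine. The LPtau group holds 3 arrays of pups from dams fed 8% casein, and the NPtau group holds 3 arrays of pups from dams fed 20% casein. Both groups share the taurine supplement, given as 1% taurine in the drinking water, and both diets ran from day 1 of pregnancy until birth. Muscle was taken on day 0 after birth. These 6 arrays were chosen by tissue and maternal diet alone, and they are 6 of the 24 arrays of the series, which also covers liver and diets without taurine. For comparison, muscle of the same age and strain without taurine had 3 LP arrays (8% casein) and 3 NP arrays (20% casein), none of them shared with LPtau or NPtau. The labels call the arrays of a group biological replicates and do not name litters. Each p-value therefore rests on differences among individual samples, which may or may not include differences among litters.

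Taurine is a sulfur-containing amino acid that is abundant in muscle, is taken up by a sodium-coupled transporter and is supplied to the fetus largely by the mother. Low protein diets in pregnancy lower maternal and fetal taurine, and a taurine supplement on such a diet separates the shortage of taurine from that of protein as a whole. Hindleg muscle at birth is still maturing: embryonic and neonatal myosins are abundant, the fast adult myosins and the calcium buffer parvalbumin are being switched on, and mitochondria are multiplying.

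The expression values are RMA values, which are log2 signals summarised per probe set, and a difference of 1 on this scale is 2-fold. Array medians over all probe sets lay between 4.95 and 5.04 in the 12 muscle arrays. LPtau array 1 had a median correlation of 0.966 with the other muscle arrays, against 0.986 for LPtau array 2 and LPtau array 3. NPtau arrays had 0.986, 0.980 and 0.980, LP array 1 had the lowest value of the 12, 0.957, and a weighting of arrays by their residuals gave LPtau array 1 the smallest weight, 0.170. Where single arrays move the median of a gene list, the medians with 1 array of the 6 left out are given beside it. Read from the level of 1 sex-linked gene, 1 of 3 LPtau and 2 of 3 NPtau arrays were of female pups, as were 2 of 3 LP and 1 of 3 NP arrays. Sex by this reading was not balanced between the diets. In bulk tissue, fewer cells of a type and less RNA per cell cannot be told apart.

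No gene was called in LPtau against NPtau. Of 18193 genes, each read from 1 probe set, 0 passed an adjusted p under 0.05 (percent called 0), and the smallest adjusted p was 0.737 (limma, Benjamini-Hochberg adjustment over all genes). An unadjusted p under 0.05 was reached by 992 genes (5.45% of the genes tested), of which 555 had a positive difference (3.05%) and 437 a negative one (2.4%). LPtau and NPtau values did not overlap for 1889 genes (10.4%), in 6.6% with LPtau above and in 3.78% with LPtau below. A negative difference was found for 47.5% of the genes. The difference was positive for 9543 genes (52.5%) with a median of 0.01, and the median standard error was 0.17. The 95% confidence interval lay within 1 log2 unit of no difference for 15930 genes, 87.6% of those tested. For 7754 genes (42.6%) it lay within 0.5. Each interval is for 1 gene alone and is not adjusted for the number of genes. Genes of low signal, where the array separates little, are counted too. Without taurine, LP against NP called 23 genes (0.126%), 4 of them higher (0.022%) and 19 lower (0.104%). That number was fragile. It was 14 with LP and NP fitted alone, 5 with sex as a covariate and 3 with the cartilage marker mean as a covariate. It was 2 with the replicate number as a block, and 2 to 126 with 1 array left out. Other settings raised it: 38 with the mean of the probe sets and 39 with a filter on low values. It was 62 after quantile normalisation, 65 after cyclic loess normalisation and 789 with array weights. The number of genes differing by more than 1 log2 unit was 110 in LPtau against NPtau and 372 in LP against NP. Both comparisons take their errors from 1 fit with a shared variance per gene, so their standard errors are equal by construction.

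The 23 genes called without taurine were followed in the taurine groups. The LPtau and NPtau means did not enter the difference by which the genes were called, but these arrays did enter the shared variance and the choice of probe set. The 23 include genes of contraction and calcium handling in fast muscle fibres, and Cox7a1, a muscle subunit of cytochrome c oxidase. None was called in LPtau against NPtau, and the median size of their differences was 0.21, against 1.17 in LP against NP. The largest size with taurine was 0.52, that of Abra, which is below the smallest size without taurine, 0.66. The sizes without taurine are those by which the genes were chosen, and no test was made on them.

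Pvalb encodes parvalbumin, the calcium buffer that speeds relaxation of fast fibres. It read 8.49, 8.34 and 9.01 in LPtau muscle and 9.34, 8.57 and 8.58 in NPtau muscle, against 4.91, 6.01 and 4.92 in LP muscle and 9.64, 9.48 and 9.17 in NP muscle. The LPtau and NPtau arrays overlapped, and all 6 lay above every LP array. The difference was -0.21 with taurine (SE 0.32, 95% interval -0.92 to 0.49, adjusted p 0.860) and -4.14 without it (SE 0.32, adjusted p 0.000987).

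Mybpc2, the fast-fibre myosin-binding protein C, read 9.26, 9.55 and 10.97 in LPtau muscle and 10.56, 9.87 and 10.66 in NPtau muscle. In LP muscle it read 6.23, 6.78 and 5.79, against 10.82, 10.75 and 10.72 in NP muscle. The taurine groups overlapped and differed by -0.43 (SE 0.40, adjusted p 0.771), while the difference without taurine was -4.50 (adjusted p 0.00228). Its interval with taurine, -1.32 to 0.45, still allows more than a 2-fold lower level.

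Actn3, the fast-fibre alpha-actinin of the Z-disc, read 10.96, 11.37 and 12.06 in LPtau muscle and 12.07, 11.29 and 11.87 in NPtau muscle, a difference of -0.28 (SE 0.37). Without taurine it differed by -2.98, with LP values of 8.52, 10.02 and 9.07 against NP values of 12.22, 12.15 and 12.17. Eef1a2, the translation elongation factor isoform that replaces Eef1a1 in mature muscle, averaged 10.82 ± 0.51 in LPtau muscle and 10.73 ± 0.55 in NPtau muscle (SD, n = 3 each), a difference of 0.08. It differed by -2.25 without taurine. Eef1a1 itself differed by 0.06 with taurine and 0.18 without.

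Cox7a1, the muscle isoform of a cytochrome c oxidase subunit, read 9.93, 9.44 and 9.85 in LPtau muscle and 9.57, 8.89 and 9.64 in NPtau muscle. The difference had the opposite sign to the one without taurine: 0.37 (SE 0.28) against -2.27. Abra, an actin-binding activator of serum response factor signalling, averaged 7.87 ± 0.98 in LPtau muscle and 8.39 ± 0.78 in NPtau muscle (SD, n = 3 each). Its arrays of 1 group spread more widely than those of most of the 23 genes, and the interval of -1.66 to 0.62 is accordingly broad.

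**Figure D1:**
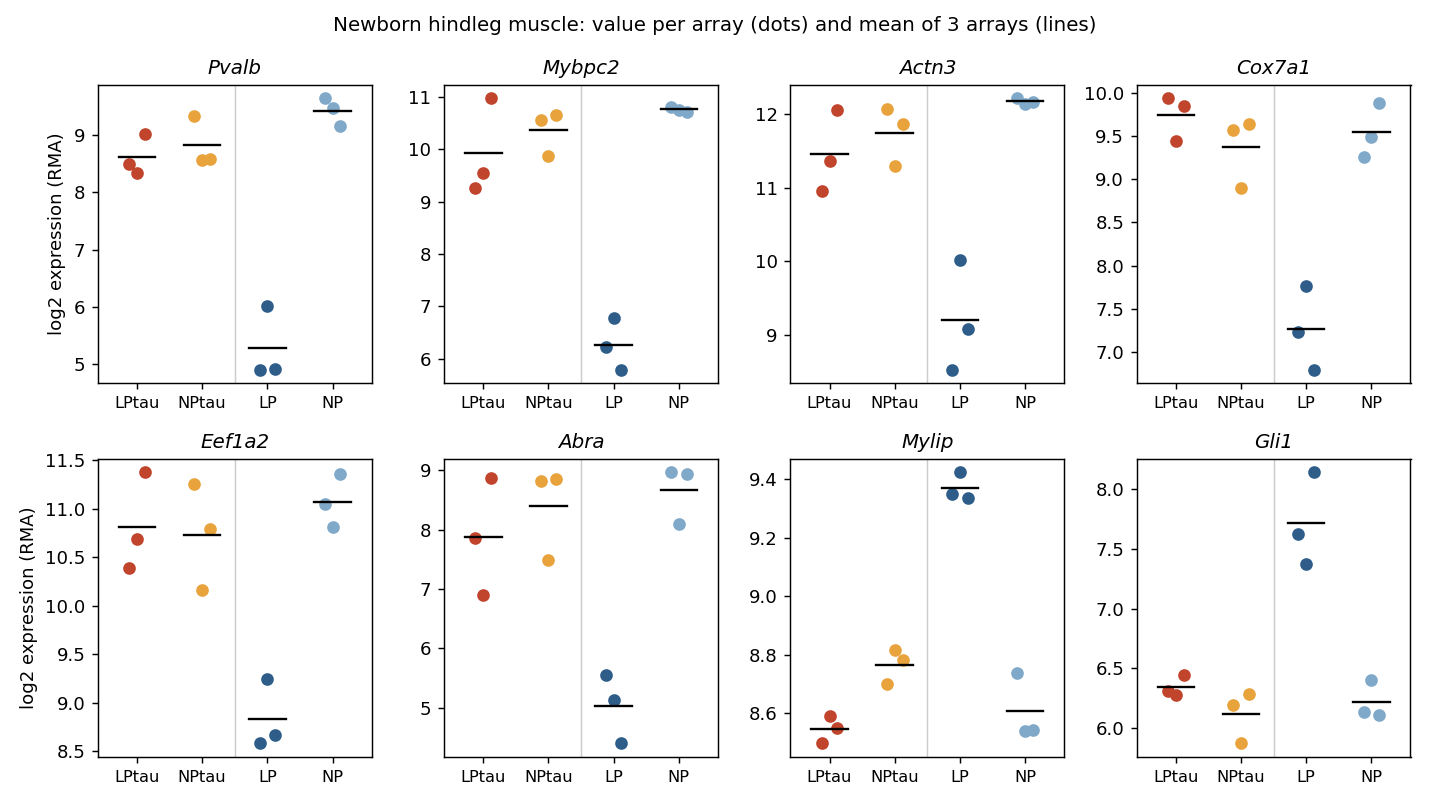
RMA log2 expression of 8 genes called in LP against NP, with 1 dot per array and a line at the mean of 3 arrays, for LPtau, NPtau, LP and NP muscle. The LPtau and NPtau dots overlap for every gene shown except Mylip, where LPtau lies below NPtau, while LP stands apart from NP for all 8.

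Of the 19 genes lower in LP muscle, 14 had a negative difference with taurine too, and 17 of all 23 kept their sign. Over all genes 47.5% were negative with taurine. The groups did not overlap for 4 of the 23, where 10.4% of all genes did not. One was Frat2, a GSK3-binding protein, with 6.52, 6.31 and 6.73 in LPtau muscle against 6.91, 6.89 and 6.99 in NPtau muscle, a difference of -0.41 with taurine and -0.77 without. The tetraspanin Tspan15, which directs the protease ADAM10, read 6.91, 7.0 and 7.01 in LPtau muscle against 7.39, 7.18 and 7.24 in NPtau muscle, with differences of -0.29 and -0.87.

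Mbnl3, a muscleblind RNA-binding protein that holds back muscle differentiation, read 7.73, 7.70 and 7.92 in LPtau muscle against 7.43, 7.50 and 7.38 in NPtau muscle. It differed by 0.35 with taurine and 0.66 without, both positive. Mylip, a ubiquitin ligase that degrades the LDL receptor, went the other way: 8.50, 8.59 and 8.55 in LPtau muscle against 8.70, 8.81 and 8.78 in NPtau muscle. Its difference was -0.22 with taurine and 0.76 without. None of these 4 genes passed the adjusted threshold with taurine, each with an adjusted p of 0.737.

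Among the others, Asb11, Pacsin3, Fxyd1, Shisa4, C1qtnf9, Lcmt2, Cyp27a1 and Lipt1 had differences between -0.16 and 0.14 with taurine. Without it they lay between -1.93 and -0.92. For Cyp27a1 only 1 of 2 probe sets, and for Lipt1 only 1 of 3, had the sign of the difference with taurine. Kcna5, a voltage-gated potassium channel, had -0.46 with taurine (interval -1.04 to 0.12), Azin1 -0.26 and Higd1b -0.21. Gli1, the transcription factor that reads out hedgehog signalling, read 6.31, 6.27 and 6.44 in LPtau muscle and 6.19, 5.87 and 6.29 in NPtau muscle, a difference of 0.23 against 1.496 without taurine. For 19 of the 23 genes the interval with taurine lay within 1 log2 unit, the exceptions being Mybpc2, Actn3, Kcna5 and Abra.

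Whether the diet difference itself depended on taurine was tested as an interaction, the LPtau minus NPtau difference minus the LP minus NP difference. No gene passed (0 of 18193, percent called 0, limma with Benjamini-Hochberg adjustment), and 1194 genes (6.56%) had an unadjusted p under 0.05. The smallest adjusted p was that of Pvalb, 0.0544, with an interaction of 3.93 (95% interval 2.94 to 4.92). Mybpc2 had 4.06 (adjusted p 0.119), Cox7a1 2.65 (adjusted p 0.147) and Mylip -0.98 (adjusted p 0.119). Because the LP and NP values entered both the choice of the 23 genes and this interaction, its small p-values for them are no independent support. The interaction of Pvalb passed the threshold when low-signal genes were left out (adjusted p 0.0214), when the variance prior followed signal (0.0150), after quantile (0.0424) or cyclic loess normalisation (0.0266), and with array weights (0.0244). It also did so without NPtau replicate 1 (0.0492) and without LP replicate 2 (0.00598). These are 7 of the 23 alternatives run, and the interaction of Pvalb did not pass under the other 16, among them sex (0.245), the skin mean (0.123) and the cartilage mean (0.146) as covariates, the replicate block (0.393), and LPtau array 1 and NPtau array 2 both left out (0.396).

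**Figure D2:**
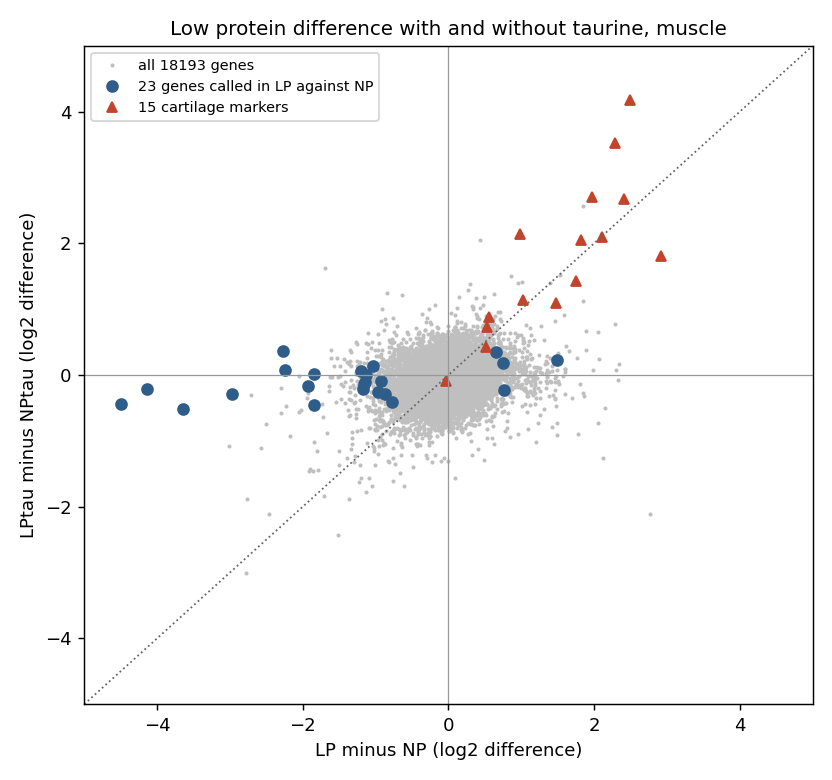
LPtau minus NPtau difference (vertical axis, log2) against LP minus NP difference (horizontal axis, log2) for 18193 genes, with the 23 genes called in LP against NP as blue circles and 15 cartilage markers as red triangles. The circles lie near 0 on the vertical axis, the largest size being 0.52, while 14 of the 15 triangles lie above 0 on it.

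The fast fibre list shows the same picture over 20 contractile and calcium genes. With taurine, 11 had a positive and 9 a negative difference, 0 were called, and the median was 0.02, against 0.01 over all genes. An unadjusted p under 0.05 was reached by 0, against 5.45% of all genes. Without taurine all 20 were negative, where 52.4% of all genes were, with a median of -0.99. Of the 20, 3 were called lower (Mybpc2, Pvalb and Actn3, also described above), against 0.104% of all genes. For 8 of the 20 every LP array lay below every LPtau and NPtau array. How many of all genes have this arrangement was not counted, so these 8 have no share to be read against. The adult fast myosins spread widely between pups. Myh4, the myosin of the fastest fibres, read 5.89, 6.86 and 7.22 in LPtau muscle against 7.41, 6.87 and 6.76 in NPtau muscle, a difference of -0.35 with taurine and -1.94 without. Myh1 read 10.82, 9.76 and 10.44 in LPtau muscle against 10.73, 9.21 and 9.95 in NPtau muscle, a difference of 0.38 against -1.61 without taurine. The myosin genes are near-identical over long stretches, so their probe sets may read more than 1 of them.

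LPtau array 1 was the lowest of the 6 for many abundant fast genes. Its mean over the list was 11.11, against 11.53 and 11.75 in the other LPtau arrays and 11.80, 11.18 and 11.46 in NPtau arrays. Without LPtau array 1, 16 of 20 genes were positive and the median was 0.22, and without NPtau array 2 it was -0.12, with 5 positive. The sign of this small median therefore rests on single arrays.

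Slow fibre genes (Myh7, Tnnt1, Tnni1 and 13 more) had a median of 0.11 with taurine and -0.29 without. With 1 array left out the median with taurine lay between -0.04 (without NPtau array 2, 7 of 16 positive) and 0.26 (without NPtau array 1, 15 of 16 positive). Myh7, the slow myosin, read 12.62, 11.56 and 11.81 in LPtau muscle against 12.27, 11.23 and 11.63 in NPtau muscle, so the groups overlapped (difference 0.29, SE 0.31). The developmental myosins had close means. Myh3, embryonic myosin, averaged 13.54 ± 0.25 in LPtau muscle and 13.59 ± 0.33 in NPtau muscle (SD, n = 3 each), and Myh8, neonatal myosin, averaged 14.18 ± 0.44 in LPtau muscle and 14.12 ± 0.37 in NPtau muscle. Glycolysis and glycogen genes had a median of -0.00 with taurine, 8 of 17 being positive, and -0.69 without, where all 17 were negative. Without LPtau array 1 the glycolysis median with taurine was 0.20, with 15 of 17 positive, and without LPtau array 2 it was -0.11, with 4 positive.

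Ankrd1, a titin-binding protein that accumulates under stretch, read 7.29, 6.95 and 8.57 in LPtau muscle against 9.05, 9.12 and 9.01 in NPtau muscle. The groups did not overlap, and the difference was -1.46 (SE 0.47, adjusted p 0.737), against -1.91 without taurine. The 16 load and activity response genes to which it belongs had 5 positive and 11 negative differences with a median of -0.13, which was -0.06 without NPtau array 3, with 8 of each sign, and -0.05 without LPtau array 2. Mef2c, a transcription factor of muscle differentiation, read 12.96, 12.28 and 12.20 in LPtau muscle against 11.66, 10.92 and 11.79 in NPtau muscle, a difference of 1.03 (SE 0.34). It was the only 1 of 14 myogenic factors with an unadjusted p under 0.05, against 5.45% of all genes. Myod1 and Myog, which commit and differentiate myoblasts, had 0.05 and -0.04.

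Mitochondrial subunit genes leaned positive with taurine and negative without. Of 34 complex I subunits, 28 were positive and 6 negative with a median of 0.22, and 0 were called. An unadjusted p under 0.05 was reached by 3, all positive (Ndufa7, Ndufb11 and Ndufb6), against 3.05% of all genes in this direction. Without taurine all 34 were negative with a median of -0.51. Ndufb6 read 11.78, 11.42 and 11.42 in LPtau muscle against 11.31, 10.55 and 11.20 in NPtau muscle. The low value is NPtau array 2, whose mean over the 34 subunits was 10.80, against 11.28 and 11.26 in the other NPtau arrays and 11.27, 11.27 and 11.37 in LPtau arrays. Without NPtau array 2, 22 of 34 were positive, the median was 0.06 and 0 had an unadjusted p under 0.05. Of all genes, 2.39% then had one with a positive difference.

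Subunits of complexes II and III, ATP synthase and the TCA cycle had 26 of 38 positive, with a median of 0.08 against -0.51 without taurine. Without NPtau array 2 their median was -0.09, with 14 of 38 positive, and without LPtau array 1 it was 0.20, with 37 positive. Complex IV subunits had 11 of 14 positive and a median of 0.21, against -0.38 without taurine, and 0.09 without NPtau array 2. Cox8b, a muscle and brown fat isoform, read 13.24, 11.66 and 11.71 in LPtau muscle against 11.40, 10.95 and 11.47 in NPtau muscle, a difference of 0.93 (SE 0.37), and LPtau array 1 was far above the rest.

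Slc2a4 encodes the insulin-responsive glucose transporter GLUT4. It read 9.62, 9.54 and 9.61 in LPtau muscle against 9.44, 8.89 and 9.08 in NPtau muscle, without overlap. The difference was 0.45 with taurine (SE 0.16, adjusted p 0.737), against -0.70 without. Ppargc1a, the coactivator of mitochondrial biogenesis, read 9.66, 8.40 and 8.74 in LPtau muscle against 7.03, 6.80 and 9.97 in NPtau muscle, where NPtau array 3 lay above all LPtau arrays (difference 1.00, SE 0.78).

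Fatty acid uptake and oxidation genes leaned negative both with and without taurine. Of 22 genes, 3 were positive and 19 negative with taurine, with a median of -0.33 and 0 at an unadjusted p under 0.05, against 5.45% of all genes. Without taurine all 22 were negative with a median of -0.65. Pdk4, the kinase that shuts pyruvate out of oxidation, read 8.76, 8.20 and 10.23 in LPtau muscle against 10.97, 8.66 and 10.77 in NPtau muscle, so the groups overlapped (difference -1.07, SE 0.62), and it had -3.02 without taurine (adjusted p 0.0930). Cpt1a, which admits fatty acids to mitochondria, had -0.91 and -0.68. Adipocyte markers followed this list only in part. Their mean was 6.99, 6.83 and 8.24 in LPtau arrays and 7.06, 7.73 and 9.28 in NPtau arrays. Mean levels of the fatty acid list were 9.475, 9.699 and 10.115 in LPtau arrays and 10.244, 9.527 and 10.454 in NPtau arrays. Without NPtau array 3 the fatty acid median was -0.14 and the adipocyte median 0.00. Leaving out NPtau array 1 moved them apart, to -0.24 for the fatty acid list and -0.82 for adipocyte markers. Without LPtau array 1 the fatty acid median was -0.11, with 7 of 22 positive. Other arrays moved it the other way. Without NPtau array 2 it was -0.49, with 21 of 22 negative, and without LPtau array 3 it was -0.46, with 20 negative. In those fits 7 and 6 of the genes had a negative difference at an unadjusted p under 0.05 (limma). Of all genes, 3.87% and 6.04% did so. The part of fat tissue in these values was not tested.

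Genes of the amino acid response were the list with the most members at an unadjusted p under 0.05. When amino acids run short, uncharged tRNA activates the kinase GCN2, translation slows and the transcription factor ATF4 raises amino acid synthesis, transport and tRNA charging. Of 26 such genes measured, 20 were positive and 6 negative with taurine, with a median of 0.33 against 0.01 over all genes. An unadjusted p under 0.05 was reached by 9 genes with a positive difference, against 3.05% of all genes, and by 0 with a negative one, and 0 were called. Mthfd2, Fgf21 and Slc7a11 are named so that all 9 are given, a choice made after their values were seen. Without taurine 10 were positive and 16 negative, with a median of -0.07.

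Asns, asparagine synthetase, read 10.98, 11.51 and 10.34 in LPtau muscle against 10.62, 9.86 and 9.36 in NPtau muscle. The groups overlapped by 1 NPtau array, and the difference was 1.00 (SE 0.38, 95% interval 0.16 to 1.83, adjusted p 0.737), against -0.26 without taurine. Mthfd2, the mitochondrial folate enzyme of serine-fed growth, read 9.10, 9.28 and 7.73 in LPtau muscle against 8.22, 7.66 and 7.03 in NPtau muscle, a difference of 1.06 (SE 0.40). Slc7a5, the transporter of large neutral amino acids, read 8.79, 9.46 and 8.46 in LPtau muscle against 8.38, 8.21 and 7.59 in NPtau muscle, without overlap, a difference of 0.84 with taurine and 0.70 without.

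Lars, the leucyl-tRNA synthetase, read 9.15, 9.67 and 9.03 in LPtau muscle against 8.98, 8.51 and 8.61 in NPtau muscle, without overlap and with a difference of 0.58 (SE 0.19). Yars, which charges tyrosine tRNA, had 0.46, and Phgdh, the first enzyme of serine synthesis, 0.42. Vldlr, a lipoprotein receptor, had 1.02, where LPtau array 1 at 11.15 stood above LPtau arrays 2 and 3 at 9.94 and 9.43. The hormone Fgf21 read 4.69, 5.13 and 4.97 in LPtau muscle against 4.56, 4.59 and 4.53 in NPtau muscle, a difference of 0.37, and the cystine transporter Slc7a11 read 3.79, 3.60 and 3.69 in LPtau muscle against 3.41, 3.24 and 3.48 in NPtau muscle, a difference of 0.32. Both are near the bottom of the array's signal range, which starts at 2.75.

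Atf4, the regulator itself, had -0.15, and its target and partner Ddit3 had -0.14. ATF4 is controlled largely at translation. The remaining negative differences of the list were those of Slc3a2 (-0.29), Psph (-0.21), Sesn2 (-0.18) and Tars (-0.06), named after their values were seen. The highest of the 6 values lay in LPtau array 2 for 19 of the 26 genes. Without that array 15 of 26 were positive and the median was 0.10. At an unadjusted p under 0.05, 3 genes then had a positive and 1 a negative difference, against 3.85% and 4.38% of all genes. Without LPtau array 1 the median was 0.45, with 23 positive. Of these, 11 had an unadjusted p under 0.05, against 1.23% of all genes. Without NPtau array 3 the median was 0.36, with 4 positive genes at that threshold, against 1.91% of all genes.

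**Figure D3:**
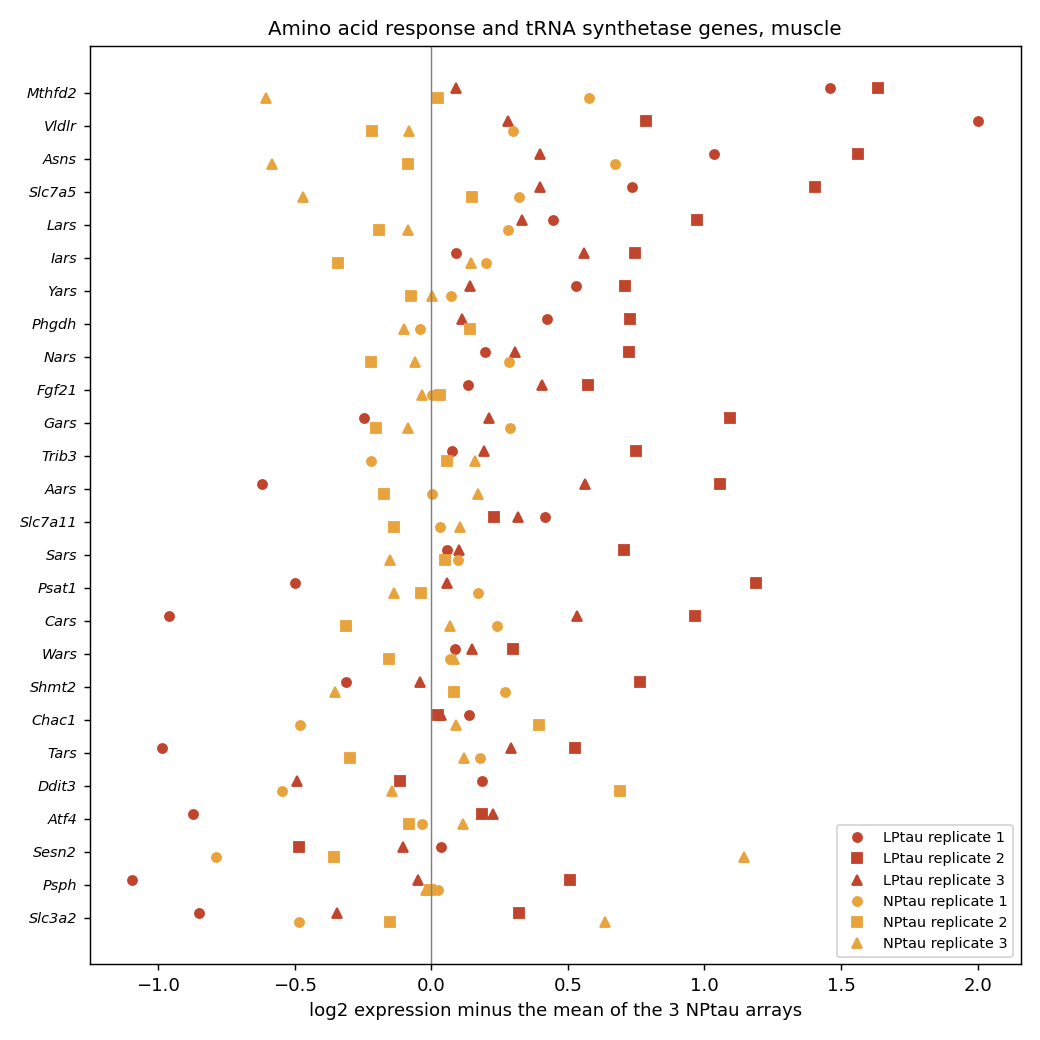
Log2 expression of 26 amino acid response and tRNA synthetase genes in each array, minus the mean of the 3 NPtau arrays (horizontal axis), with red symbols for LPtau and yellow for NPtau arrays and genes ordered by their difference. The squares of LPtau replicate 2 are the rightmost symbol for 19 of the 26 genes.

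ATF4 binds a composite element written TGATGNAA together with a C/EBP partner. The letters TGATGNAA were searched on both strands of the RefSeq promoter windows (build GRCm38.p6, 250 bases before to 50 after each annotated start). At least 1 match lay in 1304 of 32851 windows, or 3.97%, and in the windows of 4.51% of 27025 genes. Of the 26 measured list genes, 21 had a window and 11 of them held a match, or 52.4%. The list was assembled from known amino acid response genes, so this share describes the list and not these samples. Of the 7 list genes with a window and an unadjusted p under 0.05, 5 held a match. The sequences below are shown for the 3 of these 5 genes that have 1 annotated start and a match before it, 120 bases each on the strand of the gene, with the element in capitals on whichever strand it reads.
Asns, chr6:7693210-7693329, minus strand, element starting 23 bases before the start: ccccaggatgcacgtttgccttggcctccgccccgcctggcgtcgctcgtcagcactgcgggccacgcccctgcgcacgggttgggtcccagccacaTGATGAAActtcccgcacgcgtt
Slc7a11, chr3:50443616-50443735, minus strand, elements starting 66 and 47 bases before the start: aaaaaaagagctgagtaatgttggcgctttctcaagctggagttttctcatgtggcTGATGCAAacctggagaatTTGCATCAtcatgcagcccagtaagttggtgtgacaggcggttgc
Fgf21, chr7:45615566-45615685, minus strand, element starting 139 bases before the start: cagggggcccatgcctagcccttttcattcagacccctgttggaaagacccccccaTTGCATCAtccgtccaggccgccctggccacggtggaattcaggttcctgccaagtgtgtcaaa

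The element reads forward in Asns and reversed in Fgf21, and Slc7a11 carries it in both orientations. A match is a description of the sequence and does not show binding. Mthfd2 and Phgdh, with differences of 1.06 and 0.42, had no match in their window, which says only that these letters are not there. Slc7a5 and Lars had no window and were not searched.

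Among genes that handle taurine, the transporter was 1 of those with an unadjusted p under 0.05. Slc6a6, the taurine transporter, read 9.61, 9.24 and 9.21 in LPtau muscle against 8.72, 8.61 and 9.25 in NPtau muscle, where NPtau array 3 overlapped LPtau arrays. The difference was 0.49 with taurine (SE 0.19, adjusted p 0.737) and 0.55 without, and their interaction was -0.06 (95% interval -0.64 to 0.52). With taurine, 3 of the 4 Slc6a6 probe sets had a positive difference. Of 17 taurine and sulfur amino acid genes, 7 were positive and 10 negative, with a median of -0.08, which turned to 0.08 without LPtau array 1. Cdo1, cysteine dioxygenase of taurine synthesis, had -1.21 (SE 0.59), with values of 6.89, 7.97 and 8.89 in LPtau muscle against 8.03, 8.90 and 10.45 in NPtau muscle. The highest is NPtau array 3, which also had the highest adipocyte marker mean.

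Igf2, the main fetal growth factor, averaged 14.25 ± 0.16 in LPtau muscle and 14.18 ± 0.23 in NPtau muscle (SD, n = 3 each). Igf1 read 10.82, 11.51 and 11.55 in LPtau muscle against 11.51, 11.02 and 11.78 in NPtau muscle, a difference of -0.14 (SE 0.23). All 14 imprinted growth genes had differences between -0.12 and 0.10, the narrowest range of the 39 lists, while the insulin-like growth factor and insulin signalling list ran from -0.43 to 0.67 over 20 genes. Hedgehog genes had 11 of 13 positive with a median of 0.14, against 0.52 without taurine. With 1 array left out the median with taurine lay between 0.05 (without NPtau array 3, 9 of 13 positive) and 0.25 (without LPtau array 2). Ptch1, the hedgehog receptor and target, had 0.25 against 1.39.

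**Figure D4:**
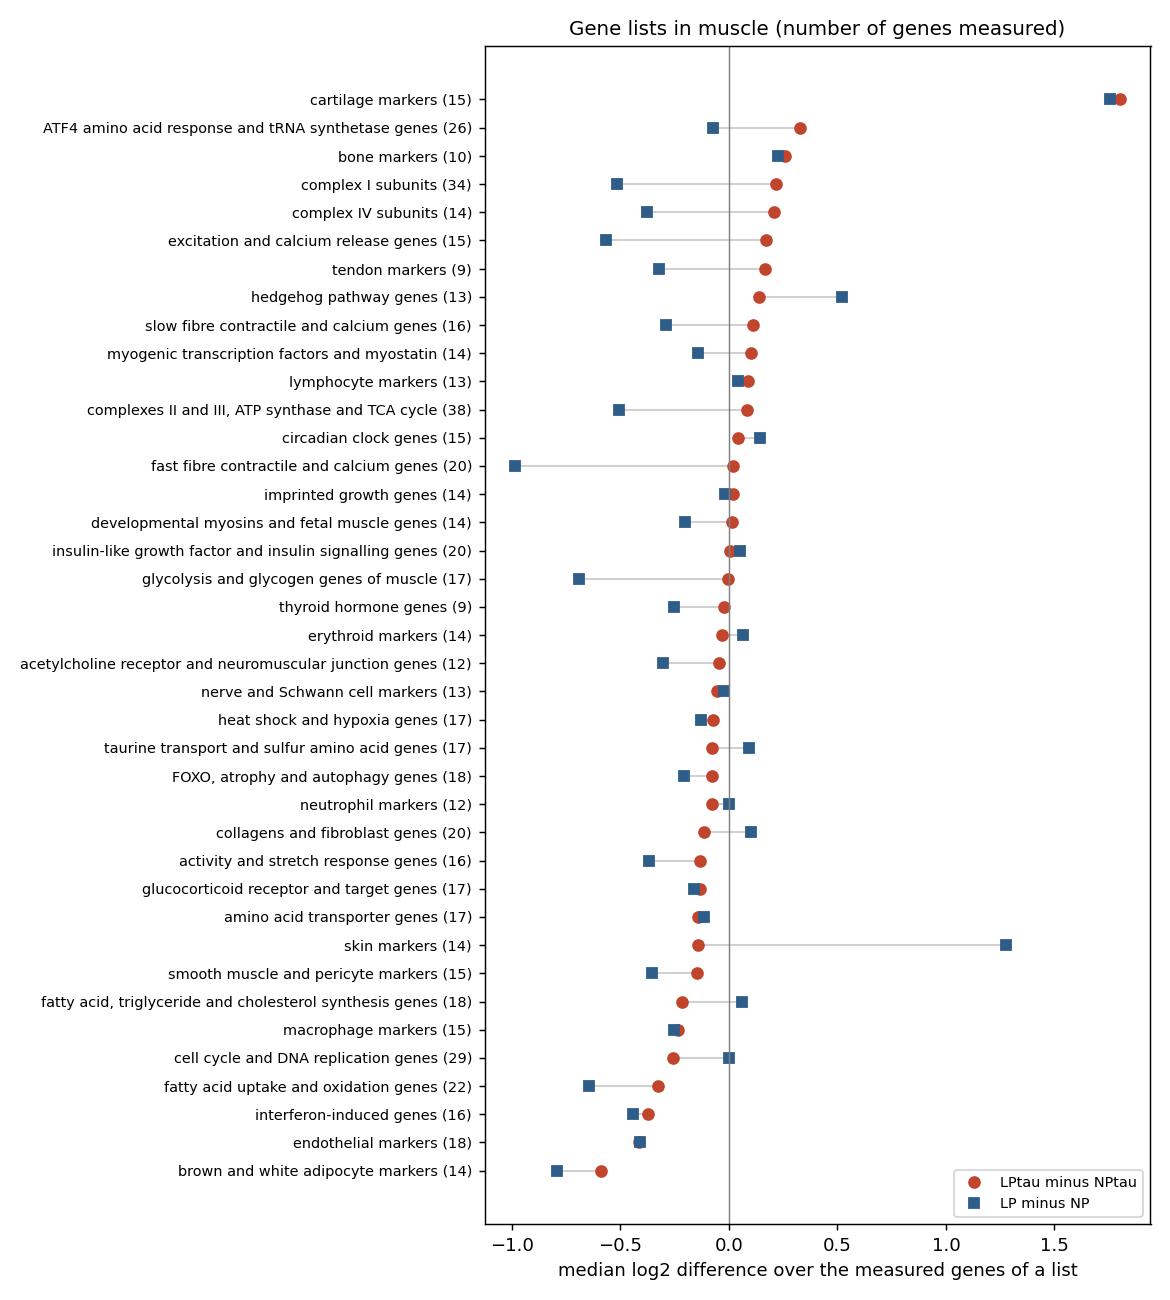
Median log2 difference over the measured genes of 39 lists (number of genes in brackets), for LPtau minus NPtau (red circles) and LP minus NP (blue squares), ordered by the first. Fast fibre, glycolysis and mitochondrial lists lie near or above 0 with taurine and between -0.38 and -0.99 without, while cartilage, endothelial and interferon lists lie at nearly the same place in both.

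Markers of other hindleg tissues differed in level between arrays. Cartilage markers showed the widest difference of all lists: 14 of 15 were positive with a median of 1.80, and 11 did not overlap with LPtau above NPtau, where 6.6% of all genes did so. Their mean level was 8.04, 8.13 and 7.88 in LPtau arrays and 5.98, 7.04 and 5.68 in NPtau arrays. In LP arrays it was 8.91, 8.90 and 5.36, against 5.39, 6.51 and 6.71 in NP arrays, so the LP median difference of 1.75 rests on 2 of the 3 arrays. Of the 15 markers 5 had an unadjusted p under 0.05, against 3.05% of all genes in this direction, and 0 were called. That count was 2 without LPtau array 1, NPtau array 1 or NPtau array 3, 3 without LPtau array 3 and 7 without NPtau array 2, while the median stayed between 1.505 and 2.20. Shares of all genes in this direction were then 1.23%, 3.19%, 1.91%, 5.96% and 2.39%, in the same order.

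Col9a1, a chain of cartilage collagen IX, read 10.54, 9.97 and 9.60 in LPtau muscle against 5.25, 8.27 and 4.03 in NPtau muscle, a difference of 4.19 (SE 1.54, 95% interval 0.78 to 7.59). Hapln1, which links hyaluronan to aggrecan, read 8.69, 7.41 and 7.45 in LPtau muscle against 4.80, 6.41 and 4.35 in NPtau muscle, a difference of 2.67 (SE 0.76). Matn3, a cartilage matrilin, had 2.10 and Col2a1, the main cartilage collagen, 2.71. Sox9, the chondrocyte transcription factor, had only 0.43. The hypertrophic marker Col10a1 read 6.98, 3.96 and 7.83 in LPtau muscle against 4.18, 4.25 and 3.90 in NPtau muscle, so LPtau array 2 was at the level of the NPtau arrays. The part of cartilage in the other differences of this comparison was not tested gene by gene. With the cartilage mean as a covariate 0 genes were called in LPtau against NPtau.

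**Figure D5:**
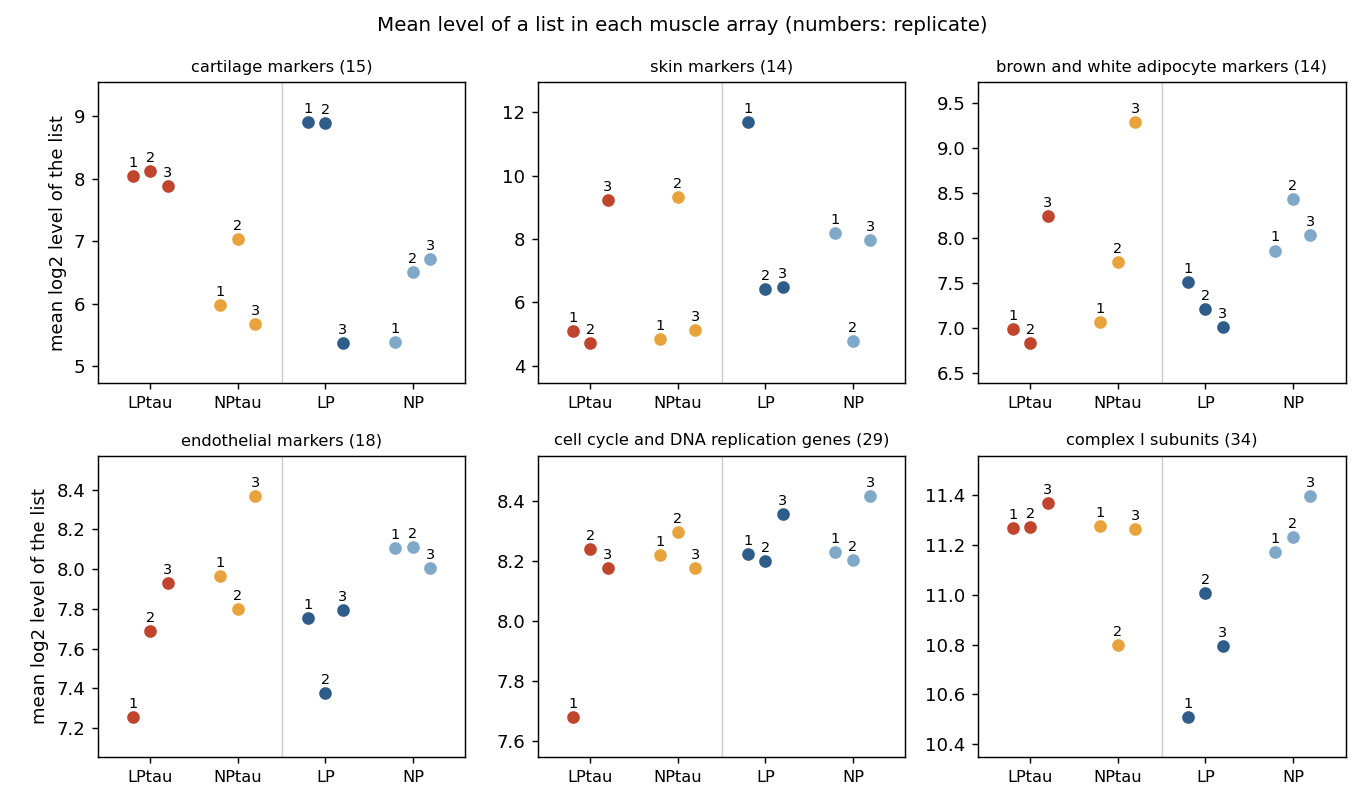
Mean log2 level of 6 lists in each of the 12 muscle arrays, with dots labelled by replicate number, for LPtau, NPtau, LP and NP. Cartilage separates LPtau (7.88 to 8.13) from NPtau (5.68 to 7.04), skin is high in single arrays of several groups, and LPtau array 1 is low for the endothelial and cell cycle lists.

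Skin markers were high in single arrays of both diets. Their mean was 5.09, 4.71 and 9.23 in LPtau arrays and 4.86, 9.34 and 5.12 in NPtau arrays, and all 14 had their highest values of the 6 arrays in LPtau array 3 and NPtau array 2. Krt10, a keratin of differentiated epidermis, read 7.10, 6.33 and 12.89 in LPtau muscle against 7.13, 12.73 and 7.36 in NPtau muscle. NPtau array 2, high for skin, is also the array that was low for the mitochondrial subunits, whereas LPtau array 3, as high for skin, had the highest complex I mean of the 6, 11.37. The part of skin in the mitochondrial medians was not tested. With the skin mean as a covariate 0 genes were called in LPtau against NPtau and 21 in LP against NP.

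Endothelial markers leaned negative, 17 of 18 with a median of -0.41, and 5 had an unadjusted p under 0.05 (Sox17, Emcn, Tie1, Esam and Lyve1), where 2.4% of all genes had one in this direction. Sox17, a transcription factor of arterial endothelium, read 6.85, 6.76 and 6.97 in LPtau muscle against 7.40, 7.04 and 7.64 in NPtau muscle, a difference of -0.50 without overlap and -1.10 without taurine. Pecam1, the junction protein of endothelium, read 7.87, 9.16 and 9.23 in LPtau muscle against 9.45, 9.32 and 9.56 in NPtau muscle, and the low value is LPtau array 1. Without that array the median of the list was -0.20, with 16 of 18 negative and 1 at an unadjusted p under 0.05, and without NPtau array 3 it was -0.25, with 14 negative and 0 at that threshold. Shares of all genes in this direction were then 0.726% and 0.945%. Without NPtau array 2 the median was -0.60, with 5 genes at that threshold, and without LPtau array 3 it was -0.55, with 8. Of all genes, 3.87% and 6.04% reached it in this direction. The median without taurine was -0.41 as well.

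Vegfd, a growth factor for lymphatic vessels, had the smallest p of the negative differences. It read 5.76, 5.91 and 6.34 in LPtau muscle against 6.87, 6.93 and 6.73 in NPtau muscle, a difference of -0.84 (SE 0.19, adjusted p 0.737), and all 3 of its probe sets had the same sign. Lyve1, a lymphatic marker, had -0.72, with 7.13, 7.62 and 8.01 in LPtau muscle against 8.12, 8.13 and 8.65 in NPtau muscle. Macrophage markers had 12 of 15 negative and a median of -0.23, among them Mrc1 (-0.69) and Cd163 (-0.61), receptors of tissue macrophages, while Adgre1 and Csf1r had 0.27 and 0.26. Interferon-induced genes had 14 of 16 negative with a median of -0.37, and -0.44 without taurine. Without NPtau array 3 the interferon median was -0.21 and the macrophage median -0.13, and without LPtau array 2 the interferon median was -0.24. In the other direction, the interferon median was -0.47 without NPtau array 2 and -0.46 without LPtau array 3. Then 6 and 5 of the 16 genes had a negative difference at an unadjusted p under 0.05 (limma), against 3.87% and 6.04% of all genes. The macrophage median was -0.38 and -0.34 in these fits.

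Cell cycle and DNA replication genes had 23 of 29 negative differences with a median of -0.26, against -0.00 without taurine, and 6 had an unadjusted p under 0.05 in this direction, against 2.4% of all genes. That count was 0 without NPtau array 1 or NPtau array 2, 3 without NPtau array 3, 9 without LPtau array 3 and 10 without LPtau array 2. Shares of all genes in this direction were then 2.44%, 3.87%, 0.945%, 6.04% and 4.38%, in the same order. Mki67, the proliferation antigen, read 9.16, 9.63 and 9.87 in LPtau muscle against 10.07, 9.97 and 9.96 in NPtau muscle, without overlap (difference -0.45, SE 0.18). Aurka, a mitotic kinase chosen after its values were seen as the member with the largest size, read 5.46, 7.10 and 7.08 in LPtau muscle against 7.40, 7.43 and 7.30 in NPtau muscle. LPtau array 1 was the lowest for both, and without it the list median was -0.02, with 17 of 29 negative. Of these, 1 had an unadjusted p under 0.05, against 0.726% of all genes. Birc5, Kif11 and Cenpa had between -0.65 and -0.32. Ccne2, the cyclin of entry into DNA synthesis, had the highest of the 6 positive differences, 0.63, and values of 7.0, 7.15 and 6.61 in LPtau muscle against 6.51, 5.86 and 6.50 in NPtau muscle.

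The genes with the smallest unadjusted p show what the extremes of this comparison look like, and none was called (adjusted p 0.737 for each). On the positive side Pitpnc1, a phosphatidylinositol transfer protein, read 9.65, 9.14 and 8.89 in LPtau muscle against 8.28, 8.15 and 8.42 in NPtau muscle, a difference of 0.95 (SE 0.21), with 7 of its 9 probe sets of the same sign. Aldh18a1, which makes the proline precursor from glutamate, read 9.44, 9.67 and 9.14 in LPtau muscle against 8.95, 8.71 and 8.62 in NPtau muscle, a difference of 0.66, with all 5 probe sets of the same sign. Col27a1, a fibrillar collagen of cartilage, had 0.49 with taurine and 0.69 without, and its other probe set had the opposite sign. Rint1, Cnnm2 and Ttf2, given next, likewise had 1 of 2 probe sets with the sign of the difference printed, and Rgs20 had 1 of 3.

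Grp, Plekhs1, Abcb4, Bmp10, Rgs20, Napb, Fbxl18, Extl1, Rint1, Cpne6, Dmtn and Npvf had differences between 0.38 and 0.86, with LPtau means between 4.23 and 6.48. Grp, gastrin-releasing peptide, read 4.19, 4.30 and 4.21 in LPtau muscle against 3.79, 3.79 and 3.74 in NPtau muscle. On the negative side Cd53, a leukocyte tetraspanin, read 5.24, 5.62 and 6.57 in LPtau muscle against 7.04, 6.42 and 7.60 in NPtau muscle, a difference of -1.21 (SE 0.35) with overlap. Slc43a3, a purine base transporter, had -0.79, Prcp, a lysosomal peptidase, -0.57, and Ube2c, the ubiquitin-conjugating enzyme of mitotic exit, -0.47. Cnnm2, Tbc1d13, Zfp866, Ttf2, B4galt4, Acot7, Prmt9, Arhgap45 and Esyt1 had between -0.84 and -0.39.

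In liver of the same diet groups, LPtau against NPtau also called 0 genes (percent called 0). There 871 genes, 4.79%, had an unadjusted p below 0.05, and the lowest adjusted p was 0.0856. The muscle difference minus the liver difference was tested over 24 arrays, and 0 genes passed (percent called 0, 1199 genes or 6.59% with an unadjusted p below 0.05, lowest adjusted p 0.749 by limma). Sult2a2, a liver sulfotransferase, had -0.04 in muscle and 3.70 in liver, where its adjusted p was 0.878 by limma. Its means of 3.49 in LPtau and 3.53 in NPtau muscle are near the bottom of the signal range. Ccne2 had 0.63 in muscle and -0.76 in liver, and Mbnl3, called without taurine in muscle, had 0.35 in muscle and -0.40 in liver. Asns had 1.00 in muscle and 0.08 in liver, and Slc6a6 had 0.49 in muscle and 0.63 in liver.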

How the data were processed

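RNA of newborn muscle and liver was measured on 1-colour Affymetrix arrays. The authors deposited log2 values, which the submitters' processing notes attribute to RMA, naming R 2.7.0 and, with no role, MAS5; the tissues were normalised separately. Control probe sets (64) were left out, and among the 34945 of 45101 probe sets with 1 symbol, the brightest by its mean in the 12 muscle arrays stood for its gene, which gave 18193 genes. The 10092 remaining probe sets, tested apart, had 0 calls, 779 at an unadjusted p under 0.05 and a smallest adjusted p of 0.522.

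From the deposited log2 values, limma 3.58.1 in R 4.3.3 fitted 4 diet means over the 12 muscle arrays, with Benjamini-Hochberg adjustment over all genes and calls at 0.05. LPtau against NPtau, LP against NP, their interaction and the tissue difference were tested. The procedure was tested on simulated data. The members and the 39 gene lists were chosen with earlier results of these data known. Named genes are those called in LP against NP, the 15 smallest p in each direction, list members (first 3, 4 smallest p, all of lists up to 20 genes), the 5 smallest p in each direction of the interaction and tissue difference, and Slc6a6, Igf1, Igf2, Pdk4, Ppargc1a and Asns; clone names were left out. Arrays carry no read depth: their number limits the precision. Alternatives changed the filter, probe set rule, normalisation, eBayes settings, covariates and replicates used.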

Additional observations from a re-analysis of the deposited data

How the results depend on the processing

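The count of 0 genes called in LPtau against NPtau in muscle was the same under every alternative run, including groups fitted alone, a sex covariate, both renormalisations, array weights, each replicate left out, and 3 alternatives chosen after seeing the data: the skin mean as a covariate, the cartilage mean as a covariate, and LPtau array 1 and NPtau array 2 both left out. The 23 calls of LP against NP became 14 with the groups alone, 2 with a replicate block, 5 with a sex covariate, 39 with a filter on low values, 38 with the mean of the probe sets, 62 after quantile and 65 after cyclic loess normalisation, 789 with array weights, 3 with the cartilage covariate, and 2 to 126 when 1 replicate was left out (49 without LP replicate 1, 126 without LP replicate 2, 12 without LP replicate 3, and 3, 2 and 2 without NP replicates 1, 2 and 3). The 0 interaction calls became 1 with the filter, with trend and robust eBayes, and after quantile or cyclic loess normalisation (Pvalb in each), 4 with array weights, and 0 to 5 when 1 replicate was left out (1 without LPtau replicate 1, 1 without NPtau replicate 1 and 5 without LP replicate 2). The tissue difference had 0 calls except 1 without liver LPtau replicate 3. The replicate block left LPtau against NPtau, the interaction and the tissue difference at 0 calls; the numbers were not taken to pair the arrays, since correlations of the deviations of same-numbered arrays were not above 0.1 in every pair, being -0.00, -0.23 and 0.17 for LPtau with NPtau and 0.21, 0.34 and -0.14 for LP with NP. Other changes were not tested for their cause. With 3 arrays a group an exact permutation of 1 gene cannot go below a two-sided p of 0.1, and low signals, near 3 to 5, limit what the array can separate.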

Other observations

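A few gene groups outside the report add to the picture in muscle. Genes of the FOXO, atrophy and autophagy list had 7 positive and 11 negative differences in LPtau against NPtau with a median of -0.08, against -0.21 without taurine. The median with taurine was 0.06 without LPtau array 2 and -0.22 without NPtau array 2. Trim63, a ubiquitin ligase of muscle protein breakdown, read 10.12, 9.06 and 8.43 in LPtau muscle against 8.85, 8.27 and 8.59 in NPtau muscle, a difference of 0.63 (SE 0.39) with overlap, against -1.11 without taurine. Tsc22d3, a glucocorticoid-induced gene, read 8.82, 9.32 and 9.66 in LPtau muscle against 9.90, 9.66 and 9.89 in NPtau muscle, a difference of -0.55 (SE 0.19). Hmox1, heme oxygenase, read 5.76, 6.34 and 7.15 in LPtau muscle against 9.52, 6.59 and 8.20 in NPtau muscle, a difference of -1.69 (SE 0.67), and Alas2, the erythroid enzyme of heme synthesis, read 5.78, 7.17 and 7.39 in LPtau muscle against 9.20, 7.80 and 7.21 in NPtau muscle, a difference of -1.29 (SE 0.57). NPtau array 1 had the highest value of both.

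Among genes with the smallest interaction p beyond those called in LP against NP, Nt5dc3 had 0.25 in LPtau against NPtau and -0.67 in LP against NP, Hcfc1r1 had 0.23 and -0.78, Cstf3 had -0.23 and 0.72, and Septin9 had -0.25 and 0.48. For Septin9 the 3 LPtau arrays, at 8.63, 8.72 and 8.82, lay below the 3 NPtau arrays, at 8.83, 9.08 and 9.01, while the 3 LP arrays, at 9.32, 9.23 and 9.33, lay above the 3 NP arrays, at 8.88, 8.76 and 8.82. Its interaction was -0.73 (adjusted p 0.466). Mylip had the same arrangement of arrays.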
